A study of Homo sapiens with 12 samples.

Results

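The proteins of the cytoplasmic ribosome are described here in 2 human prostate cancer cell lines after knockdown of the transcription factor GATA2. Members were the probes of the array whose gene symbol is RPL or RPS followed by a number, or an RPLP or RPSA name. RPS6 kinases, RPS27L and pseudogenes were left out, and a probe had to be detected at p under 0.05 on at least 3 of the 12 arrays. The rule gave 69 genes with 112 probes, out of 11933 genes with a named and detected probe. All 112 probes passed the detection filter, 110 of them on all 12 arrays and 2 on fewer, so the filter removed no member. The genes were 25 of the small subunit and 44 of the large subunit.

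The study hybridised RNA of 12 samples to Illumina BeadChip arrays, 3 samples to a group and an array to each. MDVR cells are parental LNCaP cells that the submitters kept for over a year with 25 microM enzalutamide, an androgen receptor antagonist, and used here as an enzalutamide-resistant line. They grew in RPMI-1640 with 10% fetal bovine serum, and 10 microM enzalutamide was present in the experiments. Abl cells are LNCaP-abl, an androgen-independent derivative of LNCaP, grown in phenol-red-free RPMI-1640 with 10% charcoal-stripped serum. Each line received 25 nM of a single named siRNA against GATA2 (siGATA2) or a non-targeting control (siNT) with a lipid reagent, and RNA was taken after 72 h. The groups are thus MDVR siGATA2, MDVR siNT, Abl siGATA2 and Abl siNT, and every cell in the series was transfected. Line, serum and enzalutamide differ together between MDVR and Abl and cannot be told apart. Nothing in the labels says that replicates came from separate cultures, and p-values therefore reflect just the scatter among these samples, which may be technical.

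The cytoplasmic ribosome joins a small subunit, which reads the mRNA, and a large subunit, which forms the peptide bond, and each is built from ribosomal RNA and a nearly fixed set of proteins. Most ribosomal protein mRNAs begin with a cytosine followed by a run of pyrimidines, the 5′ terminal oligopyrimidine or TOP motif. Through this motif the kinase mTOR and the RNA-binding protein LARP1 control how strongly these mRNAs are translated. The mRNAs are among the most abundant of growing cells, and an array of mRNA levels does not see changes in their translation. MYC is a known activator of ribosome production, and GATA2 is a known partner of the androgen receptor in prostate cells.

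The first bases of the transcripts show the TOP motif in most members with a start site in the table. RefSeq on GRCh38.p14 gave promoters for 58 of the 69 genes. In 42 of these 58 (72.4%) at least 1 annotated start was a C followed by at least 4 pyrimidines, against 1404 of 27305 genes (5.14%) in the whole promoter table and 6 of 69 mitochondrial ribosomal protein genes (8.7%). The sequences are of the 5 genes that fell in both lines after siGATA2 and of 5 genes that represent other patterns described further on. Each gives 30 bases before the start and 30 from the start on, on the coding strand, with the run of pyrimidines at the start in capitals.
RPL36A: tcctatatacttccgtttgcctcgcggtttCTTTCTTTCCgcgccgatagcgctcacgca
RPL7A: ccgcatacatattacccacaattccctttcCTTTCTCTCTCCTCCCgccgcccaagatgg
RPL13: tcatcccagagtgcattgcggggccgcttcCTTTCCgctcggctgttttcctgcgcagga
RPS7: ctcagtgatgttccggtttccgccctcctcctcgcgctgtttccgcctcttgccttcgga
RPL4: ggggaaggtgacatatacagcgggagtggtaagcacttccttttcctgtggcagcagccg
RPLP2: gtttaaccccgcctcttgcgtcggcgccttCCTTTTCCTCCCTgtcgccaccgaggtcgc
RPS27: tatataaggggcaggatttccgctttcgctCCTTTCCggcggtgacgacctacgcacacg
RPL39: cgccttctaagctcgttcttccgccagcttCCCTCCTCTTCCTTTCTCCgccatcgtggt
RPL29: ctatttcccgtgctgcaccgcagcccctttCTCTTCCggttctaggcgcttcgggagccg
RPS21: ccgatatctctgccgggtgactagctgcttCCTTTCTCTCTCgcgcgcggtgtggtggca
The stretches lie at chrX:101390981-101391040 on the plus strand for RPL36A, chr9:133348188-133348247 on the plus strand for RPL7A and chr16:89560652-89560711 on the plus strand for RPL13. Those of RPS7 and RPL4 lie at chr2:3575230-3575289 on the plus strand and chr15:66504826-66504885 on the minus strand, and their annotated starts carry no such run. Those of RPLP2, RPS27 and RPS21 lie on the plus strand at chr11:809937-809996, chr1:153990732-153990791 and chr20:62387073-62387132. Those of RPL39 and RPL29 lie on the minus strand at chrX:119791601-119791660 and chr3:51995866-51995925. Each stretch holds the promoter's last bases, the start site and the first bases of exon 1. For RPL13, which has 3 annotated starts, the start that meets the rule is shown.

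The arrays were alike in depth of signal. Between 19103 and 20513 of 47323 probes were detected per array, and the median raw intensity lay between 126 and 143. Members were far brighter, with a median raw intensity of 13857 to 18302 per array where the brightest probe of an array reached 21446 to 26978. Of the 112 member probes, 65 to 72 were among the 473 brightest of an array, its top 1%. All values below are log2 intensities after background correction and quantile normalization, on which 1 unit is a 2-fold difference. Changes were tested with limma over 22539 detected probes with Benjamini-Hochberg adjustment, a gene was called at an adjusted p under 0.05, and a gene with several probes is given by its brightest one. The array's scale differs between probes, so levels are compared between samples and not between genes. The labelled cell type fits its markers: KRT8, KRT18, EPCAM, HOXB13, FOXA1 and TMPRSS2 were detected on all 12 arrays, the fibroblast genes COL1A2 and PDGFRB on 0 and 1 arrays, and the macrophage gene CD68 on 12.

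GATA2 mRNA checks the labels. It stood at 8.43, 8.58 and 8.48 in Abl siGATA2, against 9.12, 8.80 and 8.82 in Abl siNT. The groups did not overlap, and the log2 change was -0.41 ± 0.12 (SE, adjusted p = 0.0147 by limma). The call was lost without Abl siGATA2 replicate 2 (adjusted p = 0.0587) or Abl siNT replicate 1 (adjusted p = 0.08). In MDVR it stood at 9.09, 8.80 and 8.86 in siGATA2 and 8.88, 9.16 and 9.26 in siNT, and the change of -0.18 ± 0.12 did not pass (adjusted p = 0.355). With 3 arrays a group a change of GATA2 mRNA was not detectable in MDVR, and GATA2 protein was not measured. MYC fell in Abl (log2 change -0.86, adjusted p = 3.01e-07) and did not pass in MDVR (-0.22, adjusted p = 0.0913), with a difference of 0.65 between the lines (adjusted p = 0.00297).

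In Abl, siGATA2 lowered 13 of the 69 ribosomal protein mRNAs and raised none by the test, and 56 were not called. The 13 were 10 of 44 large subunit genes and 3 of 25 small subunit genes. They make up 18.8% of the members, against 28.2% of all 11933 genes called in either direction and 14.6% called lower. Without adjustment, 16 members were lower and 1 higher at p under 0.05. In 25 of 69 members the 3 siGATA2 arrays and the 3 siNT arrays did not overlap, against 43.2% of all genes. The median log2 change of the 69 was -0.06, against 0.00 over all genes, and under scaling of each array by its median instead of quantile normalization it was 0.01. By that scaling 7 members fell and 1 rose. RPL10L, RPL13A, RPL36A, RPL7A and RPS7 kept their call in Abl under all alternatives run, single arrays left out included.

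RPL36A, a large subunit protein at the exit site for transfer RNA, fell in Abl. It stood at 9.40, 9.44 and 9.29 in siGATA2, against 10.13, 10.13 and 10.14 in siNT. The 3 siNT arrays were nearly identical and all stood above the siGATA2 arrays. The log2 change was -0.76 ± 0.09, which is 1.69-fold lower (SE, adjusted p = 2.19e-06 by limma). RPL7A, a large subunit protein whose gene hosts several small nucleolar RNAs in its introns, stood at 12.54, 12.54 and 12.32 in siGATA2, against 13.01, 13.10 and 13.31 in siNT. Again no siGATA2 array reached a siNT array, and the change was -0.67 ± 0.08 (adjusted p = 5.1e-06).

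RPL10L is an intronless paralog of RPL10 known for its part in male germ cells. It stood at 7.93, 7.98 and 7.87 in Abl siGATA2, against 8.40, 8.61 and 8.40 in Abl siNT, and fell by 0.55 on the log2 scale (adjusted p = 0.00303), or by 0.33 with the authors' processed values. RPL28, a large subunit protein with no bacterial counterpart, stood at 6.30, 6.72 and 6.48, against 6.85, 7.13 and 6.95 (adjusted p = 0.0195). The groups did not overlap in either gene, but the RPL28 call was lost without Abl siGATA2 replicate 2 or 4 or Abl siNT replicate 2, with adjusted p of 0.0557 to 0.101, and with the authors' processed values (-0.16, adjusted p = 0.0607). RPL13A, known for a second role in silencing translation of inflammatory mRNAs, stood at 12.73, 12.91 and 12.61 in siGATA2, against 13.23, 13.00 and 13.24 in siNT, with a change of -0.41 (adjusted p = 0.00146).

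RPL13 is a large subunit protein with a growth disorder of bone among its known human mutations. It stood at 10.60, 10.83 and 10.61 in Abl siGATA2, against 11.19, 10.94 and 11.12 in Abl siNT. The change of -0.40 passed (adjusted p = 0.00214), but a dimmer RPL13 probe gave 0.13 (adjusted p = 0.446), and the average of both gave -0.13 (adjusted p = 0.211). RPL14 stood at 11.20, 11.16 and 11.18, against 11.37, 11.64 and 11.39, with a change of -0.29 (adjusted p = 0.0337). Its groups did not overlap, yet the call was lost without any Abl siGATA2 array or without Abl siNT replicate 2 (adjusted p of 0.0686 to 0.186). A dimmer RPL14 probe was also called lower in the main fit (-0.30).

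The other falls of the large subunit in Abl come from genes named after their values were seen. RPL4, which lines part of the exit tunnel, stood at 12.70, 12.78 and 12.84 in siGATA2, against 12.99, 13.18 and 13.20 in siNT (log2 change -0.35, adjusted p = 0.00356, and 0.0873 with median scaling). RPL35A, a gene mutated in Diamond-Blackfan anaemia, changed by -0.23 (adjusted p = 0.0231), and RPL17, another protein of the tunnel wall, by -0.22 (adjusted p = 0.0278). The calls of RPL35A and RPL17 were each lost when any of 4 Abl arrays was left out, and with median scaling (adjusted p = 0.134 and 0.218). For RPL35A these were siGATA2 replicates 2 and 4 and siNT replicates 1 and 2 (adjusted p of 0.0682 to 0.0831). For RPL17 they were siGATA2 replicates 2, 3 and 4 and siNT replicate 3 (adjusted p of 0.0598 to 0.135). Of the 3 RPL17 probes, 2 were called lower in the main fit.

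Of the small subunit, RPS7, RPS26 and RPS21 fell in Abl. RPS7, which takes part in the processing of small subunit RNA and can bind MDM2, stood at 8.99, 9.05 and 8.99 in siGATA2, against 9.37, 9.52 and 9.70 in siNT. The siGATA2 arrays lay close together below all siNT arrays (log2 change -0.52 ± 0.10, SE, adjusted p = 0.000547), and a second RPS7 probe gave -0.49 (adjusted p = 0.002). RPS26, which contacts the mRNA upstream of the decoded codon, stood at 11.88, 11.86 and 12.01, against 12.19, 12.20 and 12.16, with a change of -0.27 (adjusted p = 0.00893). RPS21 stood at 11.25, 11.19 and 11.20, against 11.49, 11.52 and 11.40, with a change of -0.26 (adjusted p = 0.0108). In all 3 genes the groups did not overlap. With median scaling RPS26 and RPS21 were no longer called (adjusted p = 0.109 and 0.057), and for RPS26 the average of its probes gave -0.14 (adjusted p = 0.181).

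The other small subunit genes with well-known roles were not called in Abl. RPS6, the substrate of the S6 kinases, stood at 14.18, 14.16 and 14.07 in siGATA2, against 14.25, 14.24 and 14.20 in siNT (-0.09, adjusted p = 0.399). RPS19, the gene most often mutated in Diamond-Blackfan anaemia, gave -0.05, RPS4X gave 0.01 and RPS18 gave -0.04. RPS27, which binds zinc and is often high in tumours, gave -0.06 (adjusted p = 0.572). RPS24 gave 0.12 by its brightest probe (adjusted p = 0.296), while a dimmer RPS24 probe was lower (-0.31, adjusted p = 0.0113).

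The large subunit genes of the P stalk and of the 5S particle were not called in Abl either. The stalk recruits elongation factors to the ribosome. Its genes RPLP1 and RPLP2 gave -0.11 (adjusted p = 0.281) and -0.00 (adjusted p = 0.995). RPL5 and RPL11, which bind the 5S ribosomal RNA and can hold back MDM2 when ribosome assembly fails, gave -0.14 (adjusted p = 0.178) and 0.13 (adjusted p = 0.303). RPL3, near the peptidyl transferase centre, gave 0.09, RPL22 gave -0.08, RPL39 gave -0.07 and its testis-enriched paralog RPL39L gave -0.32, all with adjusted p between 0.23 and 0.506.

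In MDVR, siGATA2 lowered 9 of the 69 members and raised none by the test. They were 7 of the large subunit and 2 of the small subunit, together 13.0% of the members, against 19.6% of all genes called in either direction and 9.28% called lower. Without adjustment, 15 members were lower and 0 higher at p under 0.05. The groups did not overlap in 19 members, against 36.3% of all genes. The median change was -0.02. RPL13, RPL36A, RPL7A and RPS7 kept their call under all alternatives run. Without MDVR siNT replicate 3 the count of lower members was 5, and without a variance trend it was also 5.

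RPS7 and RPL36A, already lower in Abl, also fell in MDVR. RPS7 stood at 9.85, 9.80 and 9.77 in siGATA2, against 10.53, 10.28 and 10.60 in siNT, with a log2 change of -0.66 ± 0.10 (SE, adjusted p = 7.67e-05 by limma). Its second probe gave -0.67 (adjusted p = 0.000202). RPL36A stood at 8.72, 8.64 and 8.76, against 9.22, 9.40 and 9.43, a change of -0.65 ± 0.09 or 1.57-fold lower (adjusted p = 2.93e-05). In both genes the siGATA2 arrays were all below the siNT arrays.

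RPL13 in MDVR stood at 11.88, 11.72 and 11.65 in siGATA2, against 12.19, 12.29 and 12.33 in siNT, a change of -0.52 (adjusted p = 0.000333), while the dimmer RPL13 probe gave -0.30 (adjusted p = 0.0759). RPL7A stood at 13.08, 13.05 and 12.96, against 13.42, 13.51 and 13.39, a change of -0.41 (adjusted p = 0.00175). RPL5 stood at 13.28, 13.15 and 13.08, against 13.36, 13.51 and 13.51, a change of -0.29 (adjusted p = 0.00888). These 3 genes, RPS7 and RPL36A kept their call without any single array, and their groups did not overlap. RPL5 lost its call in a fit without a variance trend (adjusted p = 0.0673).

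RPL37, a zinc-binding protein of the large subunit, stood at 7.72, 7.37 and 7.74 in MDVR siGATA2, against 8.22, 8.13 and 7.85 in MDVR siNT, a change of -0.45 (adjusted p = 0.0306), or -0.24 with the authors' values. RPL29 stood at 10.34, 10.20 and 10.18, against 10.46, 10.58 and 10.63, a change of -0.32 (adjusted p = 0.0198), and a second RPL29 probe gave -0.34 (adjusted p = 0.00741). RPL4 (-0.24, adjusted p = 0.0483) and RPS3 (-0.25, adjusted p = 0.0169), a protein at the mRNA entry channel that also acts in DNA repair, are named after their values were seen. These 4 calls were the least stable. That of RPL4 was lost without any of 9 of the 12 arrays, which include arrays of Abl (adjusted p of 0.0548 to 0.221). The others were lost without MDVR siGATA2 replicate 2 and without MDVR siNT replicate 3. RPL37 was also lost without MDVR siNT replicate 2 (adjusted p of 0.102 to 0.163). RPS3 was also lost without MDVR siGATA2 replicate 3 (0.0652 to 0.0687), and RPL29 without that array or MDVR siNT replicate 4 (0.0642 to 0.0826).

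The P stalk and most members with well-known roles were not called in MDVR. RPLP1 gave 0.14 (adjusted p = 0.193) and RPLP2 0.06 (adjusted p = 0.679), while a dimmer RPLP1 probe was higher after siGATA2 (0.33, adjusted p = 0.00896). RPL11 stood at 14.20, 14.19 and 14.30 in siGATA2 and 14.21, 14.20 and 14.26 in siNT, which overlap. RPS6 gave -0.10 (adjusted p = 0.426), RPS18 -0.11 (adjusted p = 0.304), RPL22 -0.03 (adjusted p = 0.825) and RPL10L -0.08 (adjusted p = 0.77). RPL13A and RPS26 gave -0.24 (adjusted p = 0.0673) and -0.19 (adjusted p = 0.0746).

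**Figure D1:**
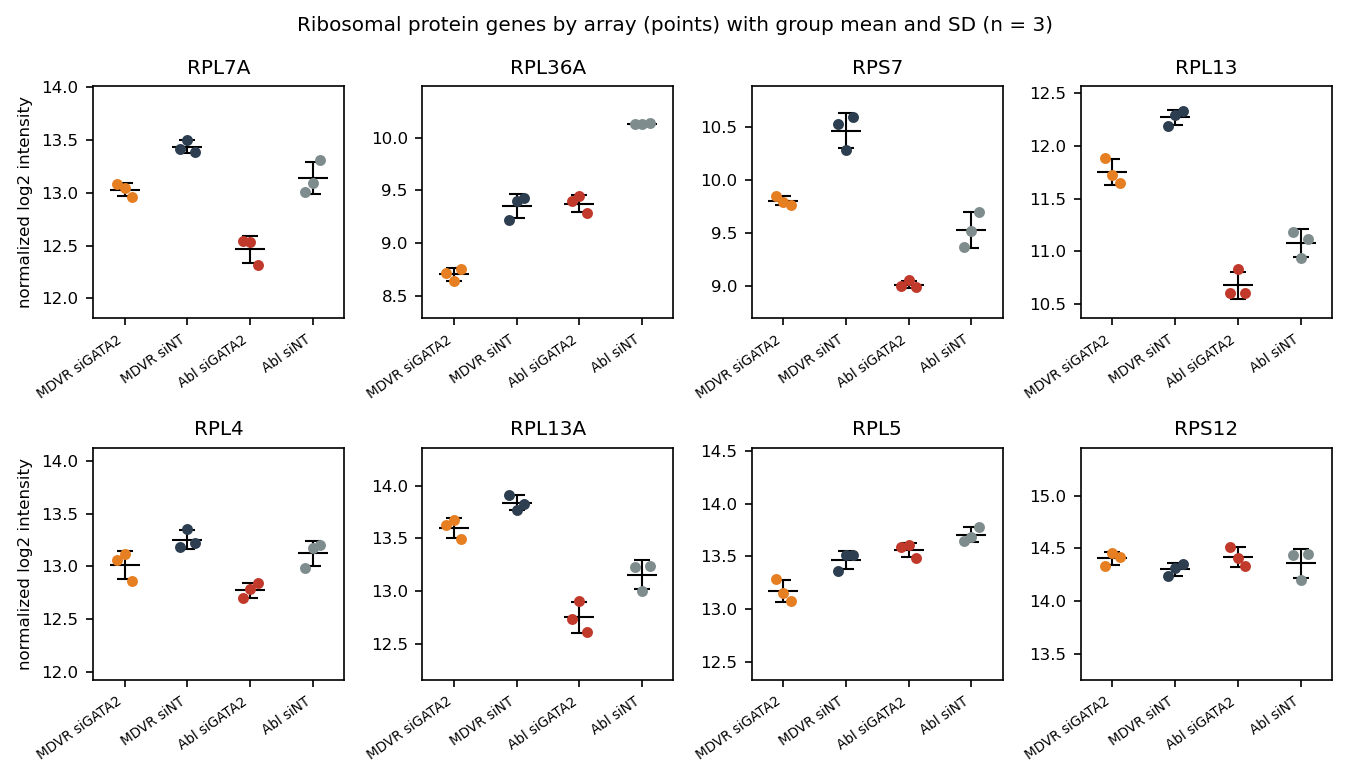
Normalized log2 intensity (y axis, a span of the same width in each panel) of 8 ribosomal protein genes on the 12 arrays, as points by group, with the group mean and SD (n = 3). RPL36A, RPS7, RPL13 and RPL7A stand lower in siGATA2 than in siNT in both lines, RPL36A is lower in MDVR siNT than in Abl siNT, and RPS12 overlaps in all 4 groups.

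The plot of single arrays includes RPS12, a small subunit protein, as a member with no call, chosen after its values were seen. It stood at 14.34, 14.46 and 14.42 in MDVR siGATA2 and 14.23, 14.32 and 14.35 in MDVR siNT. In Abl it stood at 14.51, 14.41 and 14.33 in siGATA2 and 14.43, 14.20 and 14.44 in siNT.

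RPL13, RPL36A, RPL4, RPL7A and RPS7 were called lower in both lines. They are 55.6% of the 9 falls in MDVR and 38.5% of the 13 falls in Abl. Over all detected probes, those called lower in both lines were 58.2% of the falls in MDVR and 38.5% of the falls in Abl. The estimates of the 2 effects use different arrays. All 12 arrays were normalized together, though, and the tests share an estimate of the spread over them, so the calls are not independent. Over the 69 genes the effects correlated at r = 0.66 (Spearman's rho 0.47), against r = 0.52 (rho 0.44) over all detected probes. These correlations are across genes, which are not independent replicates and share the arrays of a line. No member gene differed in its siGATA2 effect between the lines at an adjusted p under 0.05, against 4.96% of all genes, and 7 did without adjustment (5 with a higher and 2 with a lower effect in MDVR). RPL10L changed by -0.08 in MDVR and -0.55 in Abl, and RPL37 by -0.45 in MDVR and 0.04 in Abl, with differences of 0.47 (adjusted p = 0.156) and -0.49 (adjusted p = 0.186). The median SE of such a difference was 0.10 over the members. A difference larger than its SE can fail to pass with 3 arrays a group, as that of RPL10L did (SE 0.18). Members without a call may therefore still differ between the lines. RPL9, part of the large subunit, had 1 dimmer probe that differed between the lines (3.88% of all detected probes did), and its 2 brighter probes did not (adjusted p = 0.975 and 0.517).

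**Figure D2:**
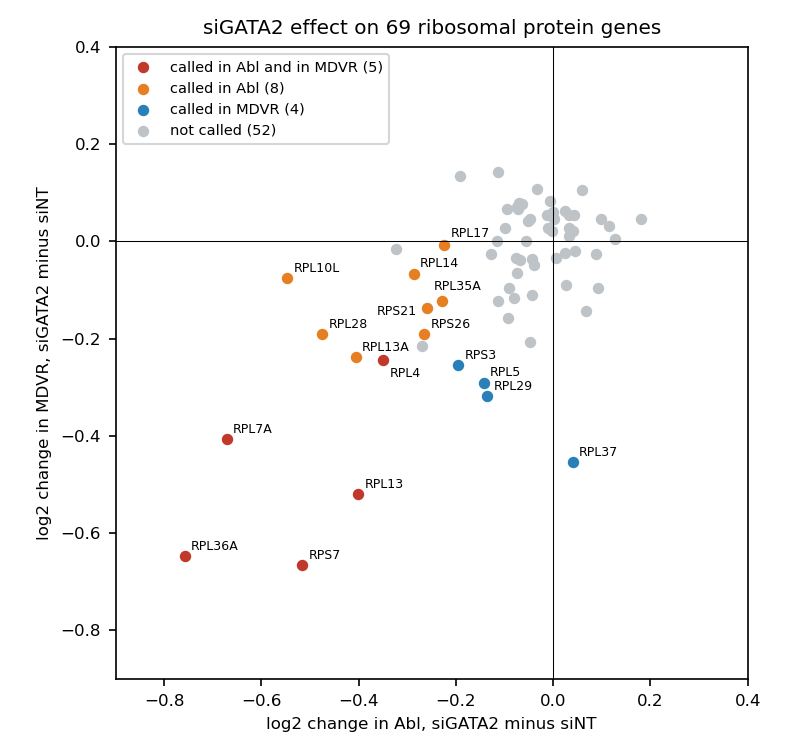
Each point is 1 of 69 ribosomal protein genes, with the log2 change after siGATA2 in Abl on the x axis and in MDVR on the y axis, and the colour says in which line it passed the test. The 5 genes called in both lines lie at the lower left, and the 52 genes called in neither lie around 0.

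Between the lines under siNT, 23 of the 69 members were higher in MDVR and 6 were lower, 42.0% of the members in all. Over all genes 48.9% were called, 24.4% higher and 24.5% lower. The higher members were 16 of the large and 7 of the small subunit, and the lower were 5 of the large and 1 of the small. The median difference of the 69 was 0.09, against 0.02 over all genes, and 0.028 with cyclic loess in place of quantile normalization. Without adjustment, 24 were higher and 9 lower at p under 0.05. Lower members numbered 10 with cyclic loess and 2 with median scaling. The count of lower members was 3 without Abl siNT replicate 2, MDVR siNT replicate 2 or MDVR siNT replicate 4. Of the 29 calls, 21 were kept under all alternatives run.

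RPL29, RPL13 and RPL28 were among the members most raised. RPL29 stood at 10.46, 10.58 and 10.63 in MDVR siNT, against 9.37, 9.20 and 9.49 in Abl siNT, a difference of 1.20 ± 0.09 or 2.30-fold (SE, adjusted p = 1.1e-09 by limma), and its second probe gave 1.19. RPL13 stood at 12.19, 12.29 and 12.33, against 11.19, 10.94 and 11.12, a difference of 1.19 (adjusted p = 9.28e-10). RPL28 stood at 8.26, 8.07 and 7.91, against 6.85, 7.13 and 6.95, a difference of 1.10 (adjusted p = 2.43e-06), or 0.53 with the authors' processed values. In these 3 genes the lowest MDVR siNT array stood well above the highest Abl siNT array.

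RPS21 stood at 12.50, 12.61 and 12.45 in MDVR siNT, against 11.49, 11.52 and 11.40 in Abl siNT, a difference of 1.05 ± 0.07 (adjusted p = 2.03e-10). RPL37 stood at 8.22, 8.13 and 7.85, against 6.93, 7.08 and 7.03, also 1.05 (adjusted p = 3.52e-06), or 0.51 with the authors' values. RPL22, which binds the small RNA EBER of Epstein-Barr virus and is a tumour suppressor in T cells, stood at 12.39, 12.50 and 12.50, against 11.53, 11.49 and 11.50, a difference of 0.96 or 1.94-fold (adjusted p = 1.23e-09). RPS7 was higher by 0.94 (adjusted p = 1.27e-07), RPL14 by 0.80 (7.54e-07) and RPL13A by 0.68 (1.71e-06). Among members named after their values were seen, RPL23A and RPS23 were higher by 0.77 and 0.69. RPS4X, RPL11 and RPS18 were higher by 0.51, 0.48 and 0.39, with adjusted p of 3.72e-05 to 7.69e-05, on probes near the top of the intensity range.

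RPL10L and RPL36A went the other way. RPL10L stood at 6.63, 6.59 and 6.85 in MDVR siNT, against 8.40, 8.61 and 8.40 in Abl siNT. This difference of -1.78 ± 0.12, or 3.43-fold lower (SE, adjusted p = 4.33e-10 by limma), is that of a dim probe and depended on the processing. It was -1.12 without background correction and -0.87 with the authors' processed values, both called, and by the authors' values RPL13, RPL29 and RPS21 differed more in size. RPL36A stood at 9.22, 9.40 and 9.43, against 10.13, 10.13 and 10.14, a difference of -0.78 or 1.72-fold lower (adjusted p = 3.4e-07). Neither gene had an MDVR siNT array that reached an Abl siNT array.

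The other lower members in MDVR siNT changed little and gave less stable calls. RPL5 stood at 13.36, 13.51 and 13.51, against 13.65, 13.69 and 13.78 (-0.24, adjusted p = 0.0101), and was lost without MDVR siNT replicate 2 (adjusted p = 0.0634). RPLP1 stood at 14.11, 14.19 and 13.95, against 14.28, 14.33 and 14.21 (-0.19, adjusted p = 0.0344), and was lost without Abl siNT replicate 1 or 2 or MDVR siNT replicate 2 or 4 (0.0532 to 0.197). Its other bright probes gave -0.21 (adjusted p = 0.0135) and -0.34 (adjusted p = 0.00195). RPS16 gave -0.17 (adjusted p = 0.0301) and was lost without Abl siNT replicate 1 or 2 or MDVR siNT replicate 3 or 4 (0.0674 to 0.111). RPL6 gave -0.16 (adjusted p = 0.0454) and was lost without any of 10 of the 12 arrays (0.0517 to 0.218).

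Members that were not called between the lines under siNT include RPLP2 (-0.11, adjusted p = 0.261), RPS27 (-0.02), RPS6 (0.09), RPS19 (0.03), RPL39 (-0.00) and RPL3 (0.16, adjusted p = 0.119). RPS27 stood at 14.16, 14.22 and 14.17 in MDVR siNT and 14.17, 14.18 and 14.26 in Abl siNT, and the groups overlapped. RPS24 gave -0.14 (adjusted p = 0.135) and RPL39L 0.19 (adjusted p = 0.46).

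**Figure D3:**
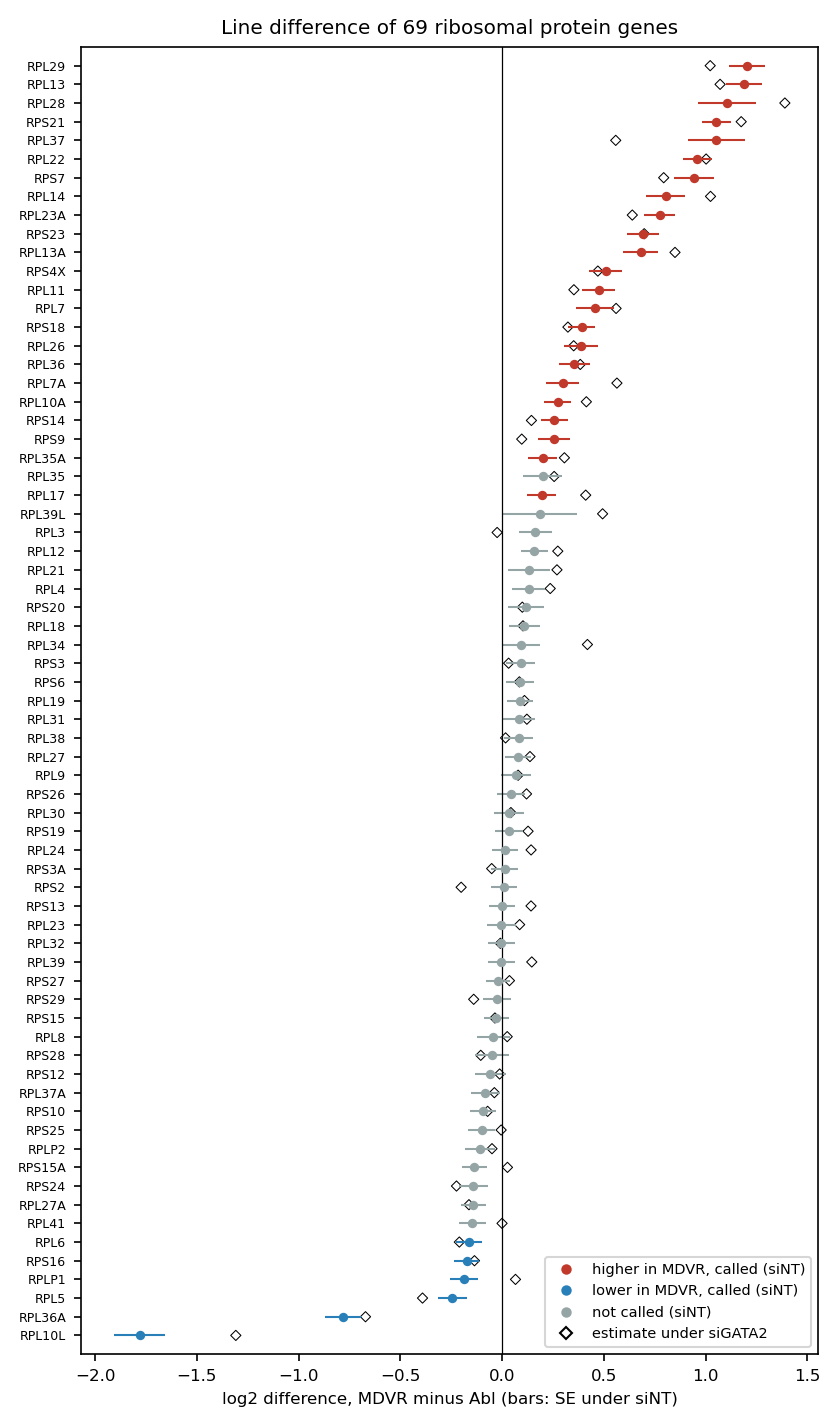
The 69 ribosomal protein genes ordered by their log2 difference between MDVR and Abl (x axis), with the value and SE under siNT as points with bars and the value under siGATA2 as diamonds. RPL10L and RPL36A lie lowest and RPL29, RPL13 and RPL28 highest under siNT, and most genes lie near 0.

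Under siGATA2, 27 members were higher and 7 lower in MDVR, 49.3% of the members. Over all genes 53.7% were called, 28.3% higher and 25.4% lower. The higher members were 22 of the large and 5 of the small subunit, the lower 5 and 2, and the median difference was 0.12. The 2 line differences use different arrays for their estimates, with the joint normalization and shared estimate of the spread given above. They shared 21 higher genes, which are 77.8% of those under siGATA2 and 91.3% of those under siNT. They shared 4 lower genes, RPL10L, RPL36A, RPL5 and RPL6, 57.1% of those under siGATA2 and 66.7% of those under siNT. Over all detected probes the shared calls were 67.2% of the higher calls under siGATA2 and 76.4% of those under siNT, and 73.1% of the lower calls under siGATA2 and 77.8% of those under siNT. Over the 69 genes the 2 differences correlated at r = 0.95 (rho 0.90), against r = 0.88 (rho 0.77) over all detected probes, across genes of the same cell lines.

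RPL28 stood between the siGATA2 groups at 7.94, 7.79 and 7.94 in MDVR and 6.30, 6.72 and 6.48 in Abl, a difference of 1.39 or 2.62-fold (adjusted p = 9.46e-08 by limma). It is a dim probe, and the difference was 0.79 without background correction and 0.58 with the authors' processed values, still called but below that of RPS21. RPS21 stood at 12.40, 12.31 and 12.45, against 11.25, 11.19 and 11.20, a difference of 1.17 (adjusted p = 3.33e-11). RPL10L stood at 6.58, 6.70 and 6.56, against 7.93, 7.98 and 7.87, a difference of -1.31 (adjusted p = 3.64e-08), or -0.57 with the authors' values. RPL36A stood at 8.72, 8.64 and 8.76, against 9.40, 9.44 and 9.29, a difference of -0.67 (adjusted p = 2.25e-06). In none of these did the lines overlap. RPL39L was higher in MDVR by 0.49 (adjusted p = 0.0322), a call lost without Abl siGATA2 replicate 2 or 3 or MDVR siGATA2 replicate 3 (adjusted p of 0.0824 to 0.115) and with the authors' values (0.10, adjusted p = 0.0533). Of the 34 calls under siGATA2, 25 were kept under all alternatives run.

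The share of members called differed with the brightness of their probes. A split at a log2 mean of 13, chosen after the values were seen, puts 52 members at or above it and 17 below. After siGATA2, 4 of the 52 and 5 of the 17 fell in MDVR, and 5 of the 52 and 8 of the 17 fell in Abl. Between the lines under siNT, 15 of the 52 were called (11 higher and 4 lower) and 14 of the 17 (12 higher and 2 lower). The median difference between the lines was 0.03 over the bright members and 0.77 over the 17 dimmer ones. The median siGATA2 changes were 0.01 and -0.14 in MDVR and -0.04 and -0.26 in Abl for the bright and the dimmer members. Of 155 genes outside the family with equally bright probes, 12.9% were called in either direction in MDVR and 14.2% in Abl. Between the lines under siNT 33.5% of them were called. Over all genes, 9.28% fell in MDVR and 14.6% in Abl, and 48.9% were called between the lines under siNT. No share was taken for dimmer genes outside the family, so whether the contrast is particular to the members was not tested. Whether the arrays' range of intensity compressed the changes of the bright members was not tested.

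**Figure D4:**
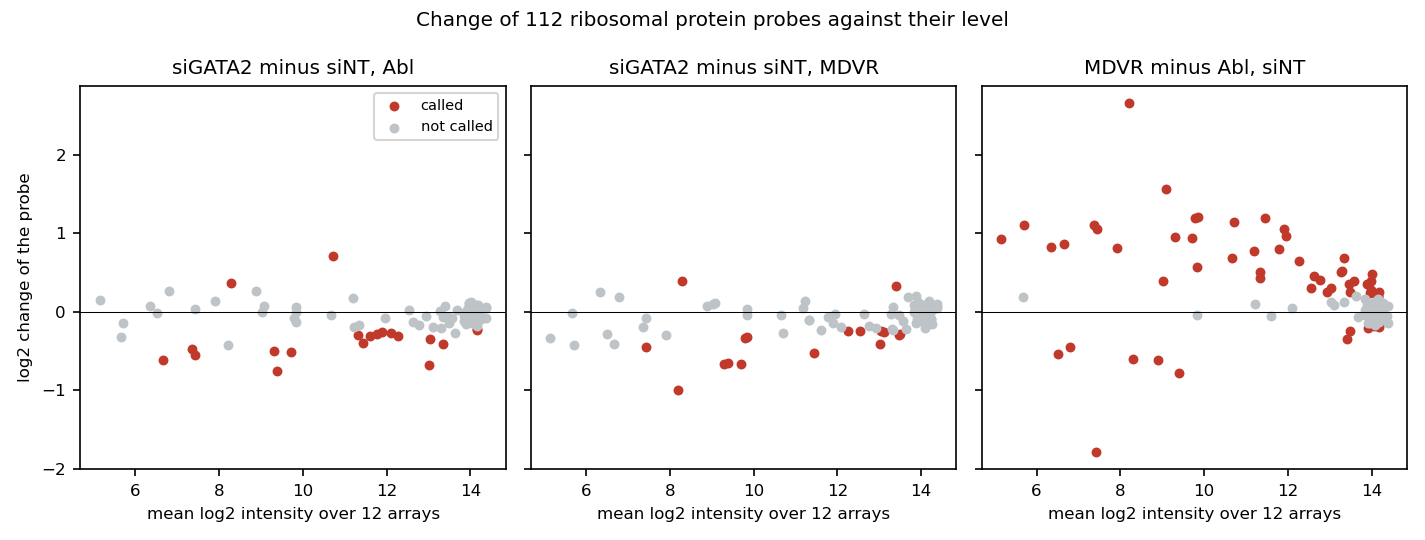
For each of 112 ribosomal protein probes, the mean log2 intensity over 12 arrays (x axis) and the log2 change (y axis) after siGATA2 in Abl, after siGATA2 in MDVR and between MDVR and Abl under siNT, coloured where the probe passed the test. Most probes above 13 lie close to 0, RPL7A just above 13 is at -0.67 in Abl, and the points farthest from 0 in each panel are dimmer probes.

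Probes of the same gene did not always move together, which bears on every level above. Of the 69 genes 31 had more than 1 probe, at most 4. RPL36 had a bright probe at 13.56, 13.66 and 13.79 in MDVR siNT, against 13.20, 13.36 and 13.39 in Abl siNT (0.35, adjusted p = 0.000778). Its dim probe stood at 7.99, 7.77 and 7.64, against 8.41, 8.41 and 8.39 (-0.60, adjusted p = 0.000694), and this dim probe was higher after siGATA2 in MDVR (0.39, adjusted p = 0.0452) and in Abl (0.37, adjusted p = 0.0407). For RPL6 the brightest probe gave -0.16 and the dimmest 0.58 (adjusted p = 0.000168). For RPL32 the brightest gave -0.00, and 3 dim probes gave -0.45, 0.86 and 1.10, all called.

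The widest spread belongs to RPS29, chosen after its values were seen. Its dimmest probe stood at 9.95, 9.90 and 9.81 in MDVR siNT, against 7.23, 7.14 and 7.33 in Abl siNT. That is a difference of 2.65 (adjusted p = 1.65e-10), or 1.73 with the authors' values, while its 3 bright probes gave -0.02, 0.04 and -0.17, none of them called. After siGATA2 in MDVR the dim probe stood at 8.90, 8.90 and 8.86, a change of -0.997 (adjusted p = 0.000472). Ribosomal protein genes have many processed pseudogenes with nearly the same sequence, and the probes' sequences were not used here, so which transcripts each probe binds was not tested.

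**Figure D5:**
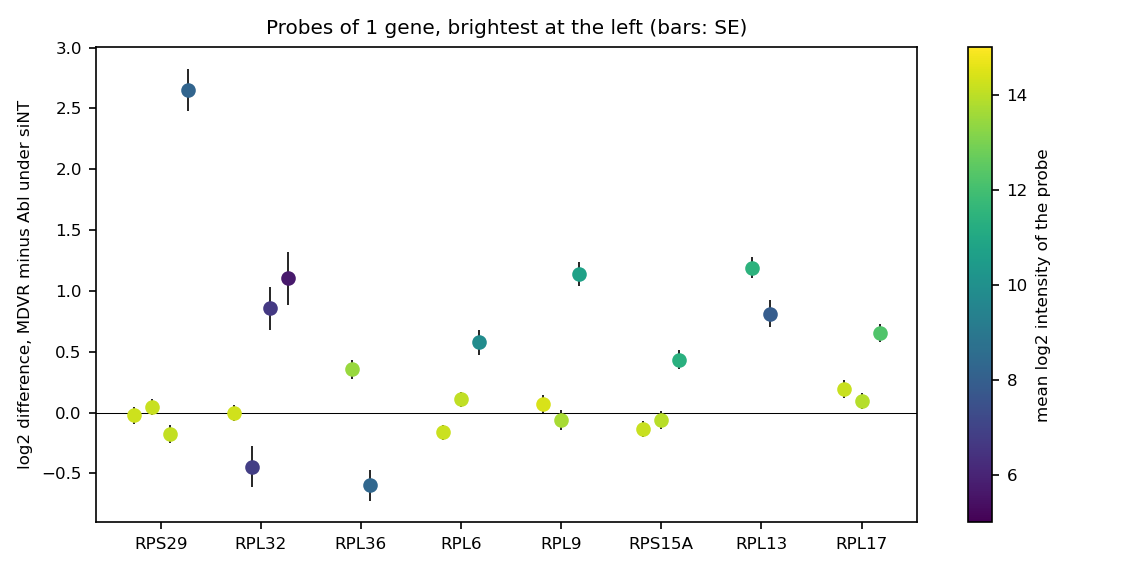
Log2 difference between MDVR and Abl under siNT for each probe of 8 ribosomal protein genes with several probes, with the SE as bars and the mean log2 intensity as colour. The bright probes of RPS29, RPL32 and RPL6 lie near 0 while a dim RPS29 probe reaches 2.65, and the probes of RPL36 lie on opposite sides of 0.

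The TOP motif was present in most members that fell and in most that did not. Among the 13 genes that fell in Abl, all of which had a promoter in the table, 8 (61.5%) had it, against 34 of 45 (75.6%) of those that did not pass. Of the genes higher in MDVR siNT, 16 of 20 (80%) had it. These are counts with no test. A pair of other words was searched in the 300 bases around the start, on both strands, without overlap between them. The E-box CACGTG, which MYC can bind, was found in 4 of 58 members (6.9%), against 8.77% of all promoters, and the GATA word AGATAA in 3 of 58 (5.17%), against 12.4%.

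Genes that work with the ribosomal proteins gave other counts. Of 39 measured genes of ribosome biogenesis, which make and process ribosomal RNA, siGATA2 lowered 20 in MDVR and 28 in Abl and raised none, with medians of -0.34 in MDVR and -0.52 in Abl. Over all genes, 9.28% were lower in MDVR and 14.6% in Abl. LYAR, a nucleolar protein of ribosomal RNA processing, fell by 0.98 in MDVR (adjusted p = 7.35e-07) and by 1.66 in Abl (adjusted p = 2.07e-10). POLR1D, a subunit of RNA polymerases I and III, fell by 0.47 in MDVR (adjusted p = 0.000121) and by 0.64 in Abl (adjusted p = 1.79e-06). RRS1, which in yeast helps bring the 5S particle into the large subunit, fell by 0.64 in MDVR and by 0.72 in Abl. The RPL5 and RPL11 genes of that particle gave -0.29 and 0.00 in MDVR, and only that of RPL5 passed.

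Of 79 mitochondrial ribosomal protein genes, which serve the separate ribosome of mitochondria, 19 fell and 4 rose in MDVR and 29 fell and 4 rose in Abl, with medians of -0.10 and -0.17. Without MDVR siNT replicate 2, 12 fell in MDVR, and without MDVR siGATA2 replicate 2 or 3 or MDVR siNT replicate 2 or 3, 1 or 2 rose there. In a fit without a variance trend, 12 fell in MDVR and 19 in Abl. In the main fit 9.28% of all genes were called lower in MDVR and 14.6% in Abl. MRPL24 fell by 0.91 in MDVR and by 0.79 in Abl, and MRPL51 by 0.70 and by 0.88, with adjusted p of 1.63e-06 or less. Between the lines under siNT, 10 were higher and 25 lower, 44.3% of the list against 48.9% of all genes. These lists were described by their counts and medians alone, and their difference from the cytoplasmic ribosomal proteins was not tested.

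Other mRNAs known for a TOP start code for translation factors and related proteins. Of 19 measured, 13 had a promoter in the table, and 10 of these (76.9%) met the rule for the motif. After siGATA2, 5 of the 19 fell in MDVR and 3 in Abl, and none rose, which is 26.3% and 15.8% of the list. Of all genes, 9.28% were called lower in MDVR and 14.6% in Abl, and 19.6% and 28.2% were called in either direction. HNRNPA1 fell by 0.84 in MDVR (adjusted p = 0.000402), and NAP1L1, a histone chaperone, fell by 0.64 in Abl (adjusted p = 9.77e-05). The call of NAP1L1 in MDVR (-0.33, adjusted p = 0.0304) was lost without MDVR siGATA2 replicate 2 or 3 or MDVR siNT replicate 2 or 3 (adjusted p of 0.052 to 0.131). The 3 other calls in MDVR, of EIF3E, EEF1G and EIF3F, were also lost without any of several single arrays, MDVR siGATA2 replicate 3 and MDVR siNT replicate 4 in each case (adjusted p of 0.0519 to 0.207). Of 6 measured paralogs outside the naming rule, 3 fell in MDVR and 2 in Abl, where 9.28% and 14.6% of all genes fell. RPL26L1 changed by -0.34 in MDVR (adjusted p = 0.00987) and by -0.49 in Abl (adjusted p = 0.000256), and RPS27L by -0.25 and by -0.38. Both MDVR calls were lost without MDVR siNT replicate 4, that of RPL26L1 also without MDVR siGATA2 replicate 2 and that of RPS27L without MDVR siNT replicate 2 (adjusted p of 0.0502 to 0.0538).

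Host genes of small nucleolar RNAs are another class known for TOP starts, which were not counted for these genes. Of 10 measured, 5 fell in MDVR, and in Abl 4 fell and 1 rose. The MDVR count was 3 without MDVR siGATA2 replicate 1 or 2 or MDVR siNT replicate 2. The share of all genes called lower was 9.28% in MDVR and 14.6% in Abl. Under siNT, 8 of the 10 were higher in MDVR than in Abl and none was lower, with a median of 1.21, where 48.9% of all genes were called. ZFAS1 was higher by 1.85 (adjusted p = 7.37e-13), SNHG5 by 1.50 (1.2e-11) and EPB41L4A-AS1 by 1.49 (9.37e-12). After siGATA2, ZFAS1 changed by -0.02 in MDVR and rose by 0.55 in Abl (adjusted p = 8.46e-05), a difference of -0.57 (adjusted p = 0.00932, and 0.0787 without a variance trend).

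Of 15 measured regulators of ribosomal protein genes and TOP translation, 4 rose and none fell in MDVR, and 4 rose and 3 fell in Abl. These are 26.7% of the regulators in MDVR, against 19.6% of all genes, and 46.7% in Abl, against 28.2% of all genes. PDCD4, an inhibitor of translation initiation, rose by 0.65 in MDVR (adjusted p = 0.00396) and by 0.87 in Abl (adjusted p = 0.000164). EIF4EBP2, which binds the cap-binding protein, rose by 0.77 in MDVR (adjusted p = 0.000224) and by 0.47 in Abl (adjusted p = 0.00956). Its relative EIF4EBP1 gave -0.12 in MDVR (adjusted p = 0.683) and fell by 0.80 in Abl (adjusted p = 0.000677), and the difference of 0.68 did not pass (adjusted p = 0.0904). Of 7 measured chaperones of single ribosomal proteins, none passed in MDVR and 3 fell in Abl, among them GRWD1 (-0.66, adjusted p = 0.00177) and TSR2, a carrier of RPS26 (-0.36, adjusted p = 0.0094). The TSR2 call was lost without Abl siGATA2 replicate 4 (adjusted p = 0.0603) or Abl siNT replicate 3 (adjusted p = 0.0608). The chaperones GRWD1 and LTV1 are also on the list of ribosome biogenesis, so the counts of those lists overlap. RPS26 and the other members that join the ribosome late in the cytoplasm, 5 of them measured, gave 1 fall in Abl and none in MDVR. Beside these counts and those of the chaperones, 9.28% of all genes were lower in MDVR and 14.6% in Abl.

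The arrays measured RNA of whole cultures, so fewer cells of a kind and less RNA per cell cannot be told apart. The epithelial markers EPCAM and FOXA1 were higher in Abl siGATA2 than in Abl siNT by 0.37 (adjusted p = 0.00496) and 0.24 (adjusted p = 0.023), and CD68 by 0.53 (adjusted p = 0.0147), and no marker was called in MDVR. Between the lines under siNT, KRT8 differed by -1.74 (adjusted p = 3.15e-11), HOXB13 by -0.29 and FOXA1 by 0.25. COL1A2, a defining gene of fibroblasts, was detected on no array. The part of the moving markers in the results was not tested.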

How the data were processed

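RNA of 12 samples was measured on Illumina BeadChip arrays, 3 per group. The authors deposited non-normalized intensity values on a linear scale for 47323 probes and, beside each, a detection p-value. They also deposited processed log2 values for 23043 probes, made with lumi per the submitters' processing notes, whose settings the sources used here do not give; these log2 values were an alternative.

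Intensities were background-corrected and quantile normalized with neqc of limma 3.58.1 in R 4.3.3 (offset 16). The 22539 probes with a detection p under 0.05 on 3 or more arrays were analysed. In the table of gene symbols, 16973 probes have 1 symbol and 5 have several. The kept probe with the highest mean stood for a gene. Group means were fitted to all 12 arrays with eBayes and a trend (8 residual and 11.2 prior degrees of freedom), and p-values were adjusted over all kept probes by Benjamini-Hochberg for each of 5 comparisons, without a replicate block. The procedure was tested on simulated data. Precision is limited by the number of arrays. The median SE of a log2 change within a line was 0.17 over all kept probes and 0.07 over the members' genes.

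The members and gene lists were chosen with earlier results of these data known. Named genes are the 6 members with the largest called rise and the 6 with the largest called fall (5 for the difference of effects and for the lines under siGATA2), a fixed set of members with known roles, members whose probes were called in opposite directions, GATA2, MYC and up to 4 genes per list. Any other is said to be chosen after its values were seen. Alternatives were other normalizations, probe rules, filters and variance models, a replicate block, and leaving out each array. Each line shares 2 replicate numbers between its groups, and deviations of same-numbered arrays correlated at 0.004 to 0.112 over 4 pairs, so the numbers were not taken to pair the arrays. The slide as a block was not run, since the sources used here do not give slides. Promoters came from RefSeq (GRCh38.p14).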

Additional observations from a re-analysis of the deposited data

Results flagged for a closer look

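A probe of RPL9 differed in its siGATA2 effect between the lines by the test of the difference itself. It stood at 10.98, 10.97 and 10.73 in MDVR siGATA2, against 11.14, 11.19 and 11.16 in MDVR siNT (log2 change -0.27, adjusted p = 0.0792 by limma). In Abl it stood at 10.62, 10.90 and 10.71 in siGATA2, against 10.03, 9.82 and 10.23 in siNT (0.72, adjusted p = 2.83e-05). The effect in MDVR minus that in Abl was -0.99 ± 0.14 (SE, adjusted p = 0.000266). All siGATA2 arrays lay below the siNT arrays in MDVR and above them in Abl. The 2 brighter RPL9 probes showed no such difference at the threshold (adjusted p = 0.975 and 0.517).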

How the results depend on the processing

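Each result was set against each alternative in turn, and the totals here count these pairs, not distinct results. For single genes, single probes and the counts of comparison lists, 5742 pairs held. For a gene or probe, that means the same direction and side of the threshold. In 359 pairs a gene or probe lost its call, in 6 it reversed, and in 39 a list count moved. For the counts and medians of members, 322 pairs held and 32 moved. Of the member calls after siGATA2, 5 of 13 in Abl and 4 of 9 in MDVR held under all alternatives. Lower members in Abl numbered 7 with median scaling and 8 without a variance trend, and higher members 1 with median scaling or with probes averaged; the median was 0.011 with median scaling. In MDVR, 5 were lower without a trend and 1 was higher with probes averaged. The difference of effects had 1 higher member with the authors' values and medians of 0.020 (cyclic loess) and -0.046 (median scaling). For the lines under siNT the median was 0.12 (probes averaged), 0.028 (cyclic loess) and 0.11 (median scaling). Lower members there numbered 10 with cyclic loess, 3 without the detection filter, and 2 each with median scaling, without a trend and with a replicate block across the groups. Under siGATA2 the median was 0.14 (probes averaged), 0.057 (cyclic loess) and 0.070 (median scaling), with 3 lower members without a trend. With single arrays left out, the difference had a median of 0.019 to 0.056 and 0 to 1 higher members, MDVR had 5 to 10 lower members, Abl 9 to 14, and the lines under siNT a median of 0.059 to 0.098 and 3 to 6 lower members. Averaging probes reversed, under siNT, RPL36 (-0.12), RPL6 (0.17) and POLR1D (0.35) and, under siGATA2, RPL36 (-0.10), RPL6 (0.17) and BCCIP (-0.013). A replicate block left 7 lower members in MDVR, and 10 (across groups) or 12 (within a line) in Abl; the numbers pair no arrays in the labels. With a block the GATA2 change in Abl had an adjusted p of 0.117 (within a line) and the MYC difference between the lines one of 0.0745 (across groups). Apart from averaging probes, which joins probes that disagree, the cause was not tested. The slide as a block was not run. Dim probes lie near background and limit what is seen for RPL39L and the dimmest RPL32 probe.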
